A study of Mus musculus with 10 samples.

Results

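Cytosolic ribosomal protein genes encode the protein part of the ribosome, and their messenger RNAs were followed here in the esophagus of mice with and without experimental eosinophilic esophagitis. Members were the protein-coding genes whose symbol is Rpl or Rps with a number (and at most a short suffix), together with Rpsa, Rplp0, Rplp1 and Rplp2. Rps6k kinases were left out. The rule gave 83 genes of the 54446 in the table, 51 of the large subunit and 32 of the small. The study compared 5 vehicle libraries (A1 to A5) with 5 libraries of mice treated with oxazolone (OXA), a hapten that provokes the disease; these are named C1 and D1 to D4. Every library came from whole esophagus of wild-type C57BL/6 mice, with no transgene or deletion named. The sources used here do not give the age or sex of the mice, the dose, the schedule or what the letters mean. Because the letters are nested in treatment, letter and treatment cannot be told apart. Nothing in the labels says that libraries of a group came from separate mice. The p-values therefore measure only how much these libraries scatter, which may be technical.

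The small subunit of the ribosome reads the messenger RNA, and the large subunit joins the amino acids and holds the tunnel through which the new chain leaves. Ribosomal proteins are needed in matched amounts, and cells are known to set their production together, mostly at translation. Their messenger RNAs typically begin with a C and a run of pyrimidines, the 5′ terminal oligopyrimidine (TOP) tract, which the protein LARP1 binds and which makes their translation depend on the kinase complex mTORC1. The esophagus is lined by a squamous epithelium that renews from its basal layer, above smooth and, in the mouse, striated muscle.

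Sequences are shown for 5 members that carry a TOP tract at the annotated start and lie at different places in the response. These are Rps10 among the members that fell and Rpl15 with the longest tract. Rps6, Rplp2 and Rpl38 were among those called higher than the median member. A tract was counted where the annotated first base was a C that opened a run of at least 5 bases, each C or T, on the transcript's strand. The RefSeq promoter table (GRCm38.p6) held 63 of the 83 members, of which 13 (20.6%) had such a tract at the annotated start, against 813 of 27025 genes in that table (3.01%). Each line gives 10 bases before the annotated start and the first bases after it, with the tract in capitals.
Rps10 (chr17:27635225-27635254, minus strand): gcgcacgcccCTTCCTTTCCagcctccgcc
Rpl15 (chr14:18270967-18270996, minus strand): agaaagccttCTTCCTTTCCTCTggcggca
Rps6 (chr4:86857348-86857377, minus strand): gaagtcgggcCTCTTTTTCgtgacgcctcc
Rplp2 (chr7:141447641-141447670, plus strand): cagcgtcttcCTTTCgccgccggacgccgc
Rpl38 (chr11:114668570-114668599, plus strand): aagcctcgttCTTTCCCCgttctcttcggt
The tract was 10 bases long in Rps10, 13 in Rpl15, 9 in Rps6, 5 in Rplp2 and 8 in Rpl38.

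The values are CEL-Seq read counts, which come from the 3′ ends of polyadenylated transcripts, divided by a size factor per library (normalized counts). Whole reads recovered from them ranged from 3675479 (D2) to 12108822 (A4) per library, and the shallowest libraries were D2, D4 and A5. On the second principal component over the tested genes other than the members, A3, A5, D2 and D4 lay on one side and the other 6 libraries on the other. The squamous keratins Krt4 and Krt13 took 8.76% to 13.2% of the reads in vehicle and 3.27% to 7.57% in OXA. Of 10 squamous epithelium markers 5 were called lower, among them Krt15 (log2 change -2.03) and Krt78 (-2.38). The other way went 2, Krt14 (2.18) and Dsg3 (1.91). Leukocyte markers summed to 1393 to 2208 normalized counts in vehicle and to 5536 to 6579 in OXA, with 15 of 16 tested markers called higher. Proliferation markers summed to 588 to 956 and to 3374 to 6140, with 8 of 9 called higher. Of all genes tested, 15.7% were called higher and 14.2% lower. No marker of these lists was at 0 in every library. The part of these shifts in cell makeup in the results below was not tested, and in whole tissue fewer cells of a type and less RNA per cell cannot be told apart.

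Ribosomal protein messages were lower in OXA than in vehicle in most members and higher beyond the test's threshold in none. Of the 81 members with a mean of at least 5 normalized counts (49 large, 32 small), 28 were called lower in OXA at an adjusted p under 0.05 (34.6%), where 14.2% of the 14712 genes tested were called lower. The test was limma on log2(normalized counts + 1), with Benjamini-Hochberg adjustment over all genes tested. No member was called higher, where 15.7% of all genes were. The median log2 change of the members, OXA minus vehicle, was -0.46, beside -0.01 for all genes tested, and 71 of 81 changes were negative. The members are not 81 separate observations, as most of their spread was common to a library (below). As a log2 deviation from each gene's mean, the median member overlapped between the groups. It lay at -0.02, -0.08, 0.51, 0.01 and 0.71 in A1 to A5. In C1 and D1 to D4 it lay at -0.18, -0.63, 0.01, -0.36 and 0.08. Both subunits shared the lower direction. Called lower were 18 of 49 large-subunit and 10 of 32 small-subunit members, with median log2 changes of -0.48 and -0.39. In 22 members (27.2%) every OXA library lay below every vehicle library, against 10.4% of all genes tested. In no member did every OXA library lie above, against 12.0% of all genes.

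The direction of the median member was the same under each scaling run, while its size differed. Scaled to each library's total reads (CPM), which moved the median of all genes to 0.11, the median member changed by -0.33. In that scaling 24 members were called lower and 1, Rpl7l1, higher (adjusted p = 0.037). Quantile normalization gave the smallest shift, with a median member at -0.26 beside -0.04 for all genes and 29 members called lower. Without library A3 the number called lower was 17, and 30 were called without A3, A5, D2 and D4 together.

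The members that fell most were small-subunit proteins. Rps7 (ENSMUSG00000061477.4, chr12:28630554-28635953 on GRCm38) is known for binding Mdm2 when ribosome assembly is disturbed. Its normalized counts were 6519, 6351, 9071, 6327 and 10699 in vehicle libraries A1 to A5 and 3782, 2690, 4897, 2818 and 4222 in OXA libraries C1 and D1 to D4. The highest OXA library lay below the lowest vehicle library, and the mean fell to 47.2% of vehicle (log2 change -1.08 ± 0.22 SE, adjusted p = 0.00193). Rps4x (ENSMUSG00000031320.9, chrX:102184641-102189394), a small-subunit protein encoded on the X chromosome, had 7717, 7260, 10881, 7612 and 13573 in vehicle and 4701, 3198, 5310, 3990 and 4969 in OXA. Again the groups did not overlap, with a log2 change of -1.06 ± 0.21 (SE, adjusted p = 0.00210).

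Rps10 (chr17:27630118-27636669), mutated in some patients with Diamond-Blackfan anemia and shown above with its tract, had 617, 616, 848, 605 and 1053 normalized counts in vehicle against 336, 249, 447, 291 and 527 in OXA. All OXA libraries were lower, by a log2 change of -1.03 ± 0.22 (SE, adjusted p = 0.00291). Rps3 (chr7:99477596-99483738), which lies at the messenger RNA's entry into the ribosome, had 3344, 3104, 4866, 3377 and 4755 in vehicle against 1898, 1501, 2625, 1645 and 1873 in OXA. It had the smallest adjusted p of the members, 0.000980, at a log2 change of -1.03 ± 0.19 (SE). Rps16 (chr7:28350652-28353455), near the decoding site, averaged 9418 ± 2656 in vehicle and 4610 ± 1044 in OXA (SD, n = 5 each), without overlap, and changed by -1.02 ± 0.22 (SE, adjusted p = 0.00363).

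Among large-subunit members Rpl4 (chr9:64173375-64178966), which lines the exit tunnel, had the lowest log2 change. Its values were 35629, 34660, 45409, 36539 and 46751 in vehicle and 22254, 18539, 25859, 20071 and 14897 in OXA. The groups did not overlap (log2 change -0.98 ± 0.24 SE, adjusted p = 0.00757), and its OXA values ran from a lowest in D4 to a highest in D2. Rpl32 (chr6:115805205-115808747), another protein of the large subunit, had 3463, 3361, 5317, 3643 and 5766 in vehicle and 2215, 1525, 2913, 1823 and 3119 in OXA. It changed by -0.91 ± 0.23 (SE, adjusted p = 0.00815) with no overlap. The 10 lowest changes were completed by Rpl3l (-0.96, a muscle form described below), Rps25 (-0.88; needed for some internal ribosome entry sites) and Rpl23a (-0.83; at the tunnel exit where nascent chains meet the signal recognition particle).

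The other 18 members called lower had log2 changes between -0.82 and -0.54. Among them were Rps19 and Rpl11, which are mutated in Diamond-Blackfan anemia, Rpl12 of the stalk base, Rplp0, which carries the stalk, Rpl10, which completes the large subunit, Rpl22, and Rpl13, Rpl14, Rpl15, Rpl19, Rpl24, Rpl28, Rpl29, Rpl30, Rpl31 and Rps20. Their adjusted p-values ran from 0.00331 (Rpl29) to 0.0430 (Rplp0). The groups overlapped in 7 of the 28 called members, among them Rpl3l, Rpl10, Rpl13, Rpl30, Rpl31 and Rps20.

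Of the 28 calls, 16 held in all 24 alternatives run, among them Rps7, Rps4x, Rps10, Rps3, Rps16, Rpl32, Rps25, Rps19, Rpl11, Rpl12, Rpl29, Rpl19, Rpl10, Rpl24 and Rpl28. The other 12 were lost in 1 to 14 of them, Rpl4 and Rpl22 in 1 and Rplp0 in 14. Leaving out A3 lost 11 calls, C1 9, A5 and D3 8 each, D1 7, A1 4, A4 and D4 3 each, and A2 and D2 none. The members lost without A3 included Rpl13, Rpl14, Rpl15, Rpl22, Rpl23a, Rpl30, Rpl31, Rpl3l, Rplp0 and Rps20.

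**Figure D1:**
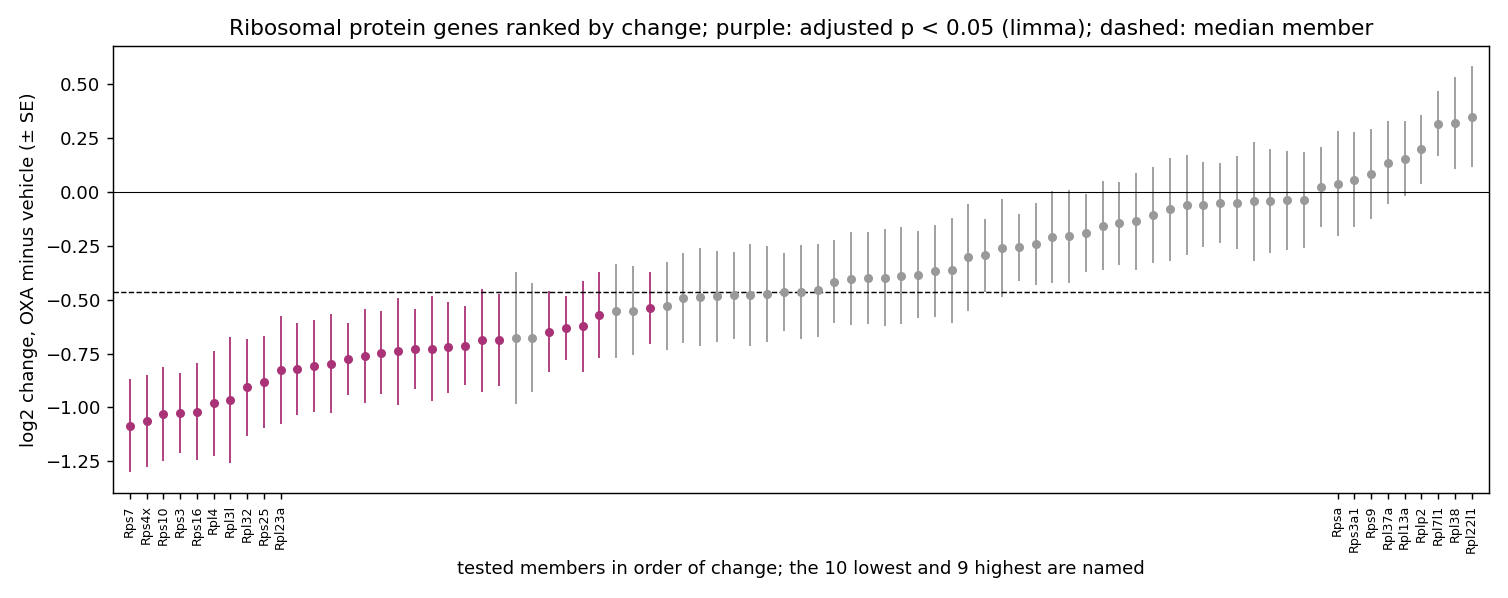
Log2 change of each of the 81 tested ribosomal protein genes, OXA minus vehicle, with its standard error from limma, ordered by change. Purple points are the 28 members called lower, grey points were not called, the dashed line is the median member at -0.46, with the 10 lowest and 9 highest named, and the order runs from Rps7 (-1.08) to Rpl22l1 (0.35).

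At the other end of the order, no member passed the test, and the values stayed near or above those of vehicle. Rpl22l1, the paralog of Rpl22, had a log2 change of 0.35 ± 0.23 (SE, adjusted p = 0.278). Rpl38 (chr11:114668524-114672631), known for its part in the translation of Hox messages in the embryo, had 2226, 2133, 3225, 2238 and 3933 in vehicle against 3615, 2270, 3932, 3008 and 4235 in OXA. Those groups overlapped, and the change of 0.32 ± 0.22 (SE) had an adjusted p of 0.280. Rpl7l1, a nucleolar relative of Rpl7 that takes part in ribosome assembly, had a change of 0.32 (adjusted p = 0.132). Others of the 10 highest were Rplp2 (0.20), a protein of the stalk that recruits elongation factors, Rpl13a (0.15), known for a second role in silencing inflammatory messages, Rpl37a (0.14), Rps9 (0.08), Rps3a1 (0.06) and Rpsa (0.04), also described as a laminin receptor. Their adjusted p-values lay between 0.376 and 0.920.

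The members moved up and down together from library to library within each group. For each member the deviation of a library from the member's own group mean was taken on the log2 scale. Of the summed squared deviations, 80.4% were common to the library, meaning that they went with the mean deviation of all members in it. The same share was 0.811% over all genes tested. The size factors hold the typical gene level between libraries, so a share near 0 over all genes was set by the scaling. Over the 77 tested mitochondrial ribosomal proteins, the proteins of the separate ribosome inside mitochondria, the share was 21.2%. Those genes had lower counts, with 78 of them summing to 18221 to 23697 in vehicle. The part of counting noise in their share was not tested. The common share was 74.9% over large-subunit and 89.4% over small-subunit members. In CPM it was 72.1% over the members and 4.97% over all genes.

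A5 was above its group mean in 80 of 81 members and A3 in 81, while A1 and A2 were above in 1 each and A4 in 0. In OXA, D2 was above its group mean in 75 members, D4 in 73 and C1 in 51, whereas D3 was above in 10 and D1 in 1. The 4 libraries that were high in nearly all members are those that lie on one side of the second principal component over other genes. They include the 3 shallowest libraries. Reads of mitochondrial genes took 4.65% to 7.81% of those 4 libraries and 6.76% to 12.1% of the other 6. The part of depth or of these other genes in the common spread was not tested. Without the 3 shallowest libraries the common share was 84.5%.

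The common movement made up most of the spread that the test of single members had to meet. The median SD of a member within its group was 0.36 log2 units in vehicle and 0.33 in OXA. After each library's mean deviation was taken off, it was 0.075 in vehicle and 0.127 in OXA. Without the 3 shallowest libraries (A5, D2 and D4) the remaining SD was 0.063 in vehicle and 0.064 in OXA, so the larger value in OXA rested on those libraries. For all genes tested the same step left it at 0.315 and 0.409, from 0.299 and 0.403. For single members each library's median deviation was taken off instead of its mean. By that measure the members furthest from the common movement in OXA were Rpl3l (remaining SD 1.08), Rpl4 (0.43), Rpl39 (0.42) and Rplp0 (0.39). In D4, relative to the median member, Rpl4 lay at -1.0 and Rplp0 at -0.71, while Rpl39 lay at 0.55. Rpl37 was the member that followed the others most closely in OXA (remaining SD 0.034, by the same measure).

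As a share of all reads, ribosomal protein genes took 7.38%, 7.19%, 9.29%, 7.71% and 10.6% of vehicle libraries A1 to A5 and 7.34%, 5.30%, 7.51%, 6.28% and 8.27% of OXA libraries C1 and D1 to D4. The groups overlapped, with means of 8.43% ± 1.47 and 6.94% ± 1.16 (SD, n = 5 each), a difference of -1.49 percentage points. Without A5 the difference was -0.95 points. Counted over reads outside Krt4, Krt13 and the mitochondrial genes, the means were 10.5% ± 1.66 and 7.98% ± 1.16, and every OXA library except D4 (9.09%, level with A2 at 9.09%) lay below every vehicle library.

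The balance between the subunits separated the groups. Reads of small-subunit genes divided by reads of large-subunit genes gave 0.737, 0.741, 0.758, 0.753 and 0.769 in A1 to A5. The same ratio was 0.823, 0.818, 0.831, 0.835 and 0.822 in C1 and D1 to D4. The highest vehicle library lay below the lowest OXA library, and the means were 0.751 ± 0.013 and 0.826 ± 0.007 (SD, n = 5 each). This ratio was computed after its parts had been seen and is given as a description. Rpl4 alone averaged 39798 normalized counts in vehicle and 20324 in OXA. Without Rpl4 the ratio was 0.846 to 0.868 in vehicle and 0.908 to 0.924 in C1, D1, D2 and D3, while D4, at 0.868, was level with the highest vehicle library.

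**Figure D2:**
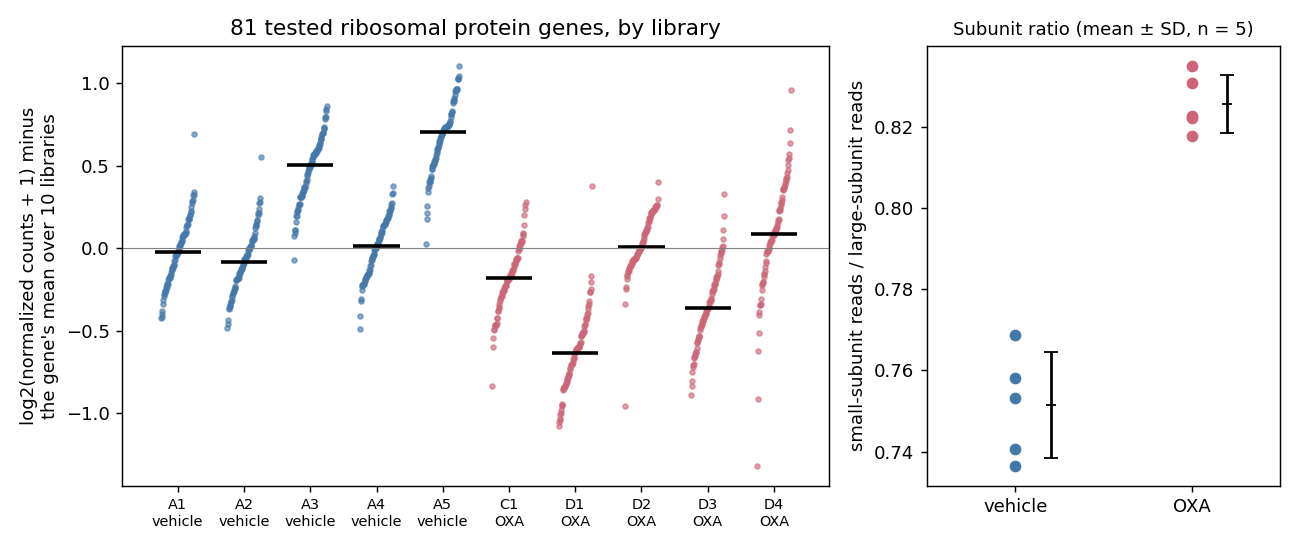
Left, each of the 81 tested ribosomal protein genes in each library as log2(normalized counts + 1) minus the gene's mean over the 10 libraries, with a black line at the median member; A3 (0.51) and A5 (0.71) stand high and D1 (-0.63) low with nearly all of their members. Right, the ratio of small-subunit to large-subunit reads per library with mean ± SD, where the vehicle libraries end at 0.769 and the OXA libraries begin at 0.818.

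To see which members departed from the rest, each library was centred on its median tested member and the same limma test was run over all genes. This test was added after the common movement had been seen, and a member's relative change is its log2 change beyond that of the median member. Since the members themselves set the centre, changes on both sides are a matter of construction. What can be read is which members lay on which side and how far. After centring, the median of all genes lay at 0.43, beside -0.01 without it. The share of all genes called lower thereby fell from 14.2% to 4.24%. A contrast of the members with that smaller share is therefore no result about them. There were 20 members called higher than the median member (24.7%, where 27.0% of all genes were called higher) and 13 called lower (16.0%, where 4.24% of all genes were). All 13 were also called lower without centring, and none of the 20 was called either way there. The share called higher lies near that of all genes. Counted by subunit, 11 of 49 large and 9 of 32 small members were relatively higher, and 5 of 49 and 8 of 32 relatively lower.

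Within single libraries the relative levels separated further. In 24 members (29.6%, all genes 20.2%) every OXA library lay above every vehicle library after centring, and in 19 (23.5%, all genes 3.32%) every OXA library lay below. Without centring 12.0% of all genes lay above and 10.4% below. The shares of all genes thus moved with the centring and set no standard for the members. The numbers of members called after centring leaned on single libraries. Relatively higher calls numbered 11 without A3, 12 without A1, A4 or C1 and 13 without D3. Relatively lower calls numbered 6 without A3, 7 without D3 and 8 without A2, A5 or C1.

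Calls of 10 relatively higher and 6 relatively lower members held in all 15 alternatives run with centring. The relatively lower ones were Rps7 (relative log2 change -0.64 ± 0.12 SE, adjusted p = 0.00150), Rps4x (-0.62 ± 0.11, adjusted p = 0.00115), Rps10 (-0.59 ± 0.14), Rps3 (-0.58 ± 0.14), Rps16 (-0.58 ± 0.12) and Rpl32 (-0.47 ± 0.12, adjusted p = 0.0123). Of these 6, 5 belong to the small subunit. In Rps4x the relative level lay between 0.26 and 0.40 in the vehicle libraries and between -0.43 and -0.24 in the OXA libraries, a gap wider than the spread on either side.

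The relatively higher ones were led by Rpl22l1 (0.79 ± 0.15 SE, adjusted p = 0.00154), Rpl38 (0.76 ± 0.12, adjusted p = 0.000287) and Rpl7l1 (0.76 ± 0.18, adjusted p = 0.00683). Rpl38 had the smallest adjusted p of the members here: its relative level was -0.40, -0.40, -0.39, -0.43 and -0.31 in A1 to A5 and 0.46, 0.24, 0.39, 0.38 and 0.42 in C1 and D1 to D4. Its libraries are thus narrowly grouped within each treatment, although its uncentred values overlapped. The acidic stalk protein Rplp2 had a relative change of 0.64 ± 0.14 (SE, adjusted p = 0.00293). Its stalk partner Rplp1 was not called (0.24, adjusted p = 0.148), nor was Rplp0 (-0.13, adjusted p = 0.605). The relative level of Rplp1 still did not overlap, at -0.16 to -0.08 in vehicle and -0.06 to 0.27 in OXA. That of Rplp0 overlapped between the groups. Differences between these stalk proteins were not tested. Rpl13a (0.60), Rpl37a (0.58), Rps9 (0.53), Rps3a1 (0.50) and Rpsa (0.48) were among the rest, with adjusted p-values from 0.00178 to 0.00706.

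The other 10 relatively higher members were Rpl7, Rpl18, Rpl23, Rpl35a, Rpl36a, Rps6, Rps14, Rps27, Rps27a and Rps29, with relative changes from 0.34 to 0.41. Rps6, the substrate that gives the S6 kinases their name, changed by 0.38 ± 0.12 (SE, adjusted p = 0.0227), and Rps27a, made as a fusion with ubiquitin, by 0.40 ± 0.12 (adjusted p = 0.0241). The other 7 relatively lower members included Rpl4, Rps25, Rpl23a, Rps19, Rpl11 and Rpl12, from -0.54 to -0.36. Rpl5 and Rpl11, which travel with the 5S ribosomal RNA and hold Mdm2 as one particle, differed in their calls: Rpl11 was relatively lower (-0.37, adjusted p = 0.0310), and Rpl5 was not called (0.05, adjusted p = 0.763). The difference between them was not tested.

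**Figure D3:**
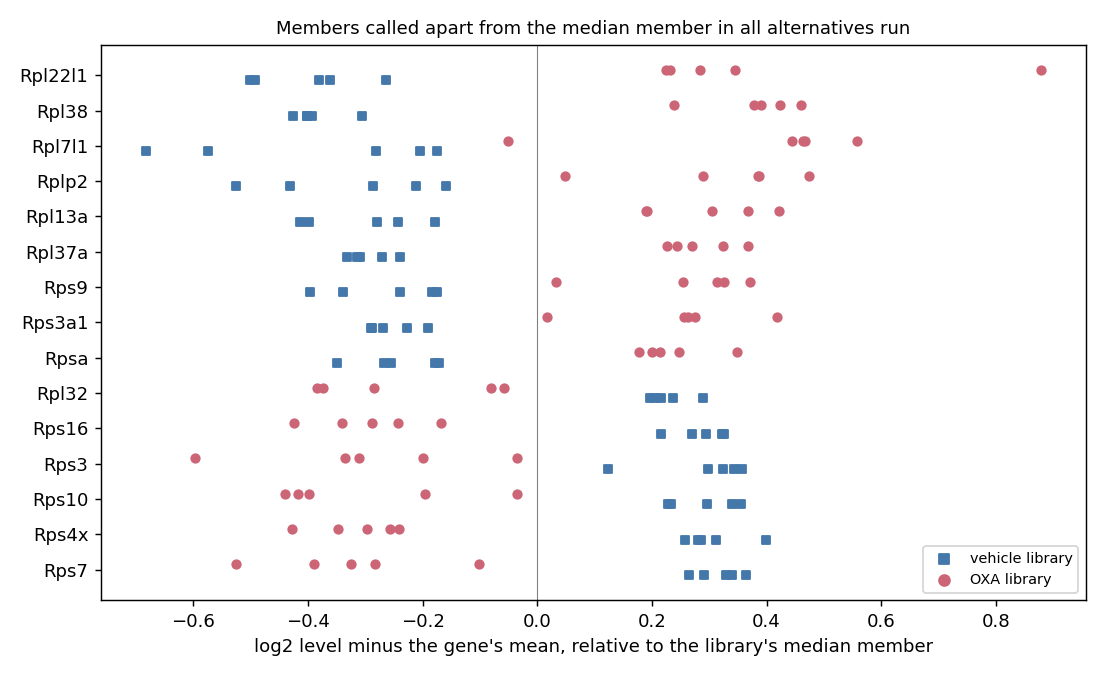
Relative log2 level of 15 of the 16 members whose calls held in all alternatives with centring, in each vehicle library (blue squares) and OXA library (red circles), as the gene's log2 level minus its mean, relative to the library's median member. In each of these 15 the groups do not overlap, and Rpl38 runs from -0.43 to -0.31 in vehicle and from 0.24 to 0.46 in OXA.

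Some members have a close relative among the genes of the table, in several cases one known to take their place in the ribosome, and a ratio of both within a library does not depend on the scaling between libraries. Of 8 pairs, 6 had both genes above the filter. Rpl22l1 (chr3:28805436-28807724) and Rpl22 (chr4:152325742-152334371) are known to counterbalance each other, as Rpl22 protein lowers the Rpl22l1 message. Rpl22l1 had 1356, 1282, 2090, 1259 and 2050 normalized counts in vehicle and 1820, 1388, 2087, 1743 and 3443 in OXA. Rpl22 had 2734, 2743, 4369, 3097 and 4985 in vehicle and 2267, 1498, 2453, 1865 and 2666 in OXA, and was called lower (log2 change -0.72 ± 0.21 SE, adjusted p = 0.0190). Rpl22l1 thus stood at 49.6%, 46.8%, 47.8%, 40.7% and 41.1% of Rpl22 in vehicle and at 80.3%, 92.6%, 85.1%, 93.5% and 129% in OXA. The log2 ratio rose by 1.07 in OXA, in 5 of 5 OXA libraries above all vehicle libraries (exact two-sided permutation test, p = 0.00794, the smallest this design allows; adjusted over 6 pairs, 0.0476). Without D4 the rise was 0.96, at the same adjusted p. Without the 3 shallowest libraries (A5, D2, D4) it was 0.94 with an adjusted p of 0.0857, where 4 against 3 libraries allow no exact p below 0.0286.

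Rps27l, which p53 is known to induce, fell against Rps27 from 61.1% ± 5.42 of it in vehicle to 49.1% ± 7.86 in OXA (SD, n = 5 each). The log2 ratio fell by 0.33 (exact permutation p = 0.0159, adjusted 0.0476), and D1 (57.8%) overlapped with A2 (54.6%). The adjusted p lay above 0.05 without any of A1, A3, A4, A5, C1, D3 or D4, at 0.0595 to 0.119. Rpl7l1 stood at 3.0% ± 0.52 of Rpl7 in vehicle and 4.03% ± 0.63 in OXA, a log2 difference of 0.42 (exact permutation p = 0.0397, adjusted 0.0794). Without D2 that difference was 0.53 and its adjusted p 0.0317. The ratios of Rps4l, which the table classes as a transcribed processed pseudogene, to Rps4x (log2 difference 0.47, adjusted exact permutation p = 0.131) and of Rpl36al to Rpl36a (-0.02, adjusted p = 0.802) did not pass. Rpl36al was 11.1% of Rpl36a in vehicle and 10.98% in OXA.

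**Figure D4:**
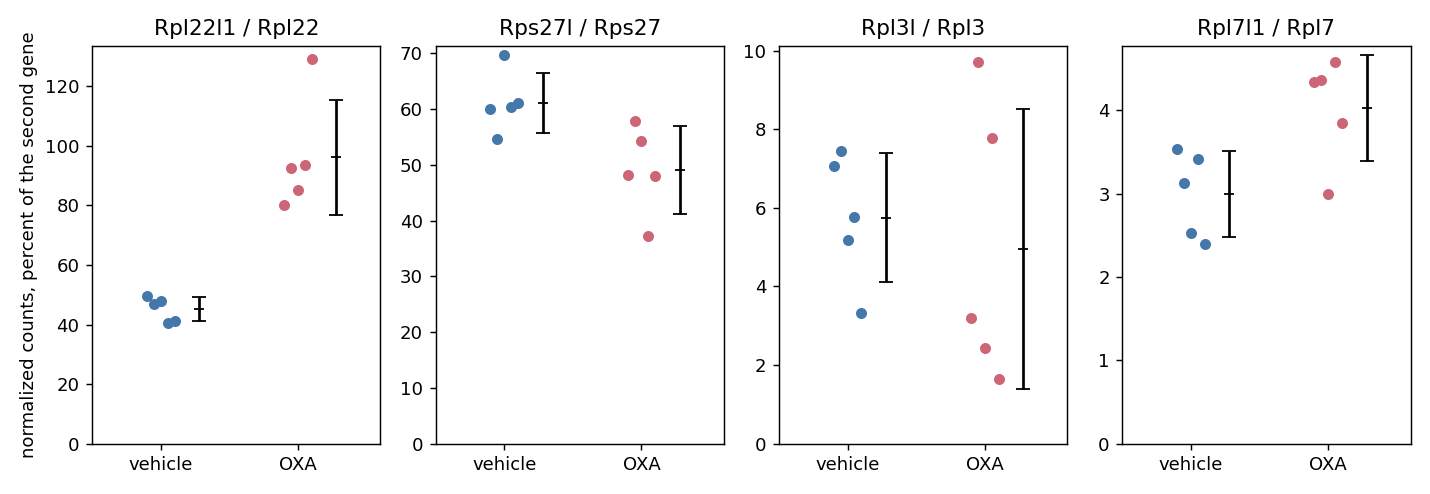
Normalized counts of a paralog as a percentage of its parent gene in each library, with mean ± SD (n = 5), for 4 pairs; each panel has its own axis from 0. Rpl22l1 lies between 40.7% and 49.6% of Rpl22 in vehicle and between 80.3% and 129% in OXA, whereas Rpl3l over Rpl3 spreads widely in OXA, from 1.65% to 9.70%.

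Rpl3l (chr17:24727820-24736443) replaces Rpl3 in striated muscle and was the member that followed the others least. It had 480, 435, 443, 372 and 353 normalized counts in vehicle and 166, 385, 152, 372 and 118 in OXA, so C1, D2 and D4 lay below all vehicle libraries while D1 and D3 lay among them. Its call (-0.96 ± 0.29 SE, adjusted p = 0.0231) was lost in 8 of 24 alternatives, among them without A1, A3, C1 or D4, and its ratio to Rpl3 did not pass (adjusted exact permutation p = 0.476). Summed over 23 skeletal muscle markers, the OXA libraries gave 153674 in C1, 411330 in D1, 162459 in D2, 295227 in D3 and 112241 in D4. The vehicle libraries gave 216197 to 290110. The 3 libraries with the lowest Rpl3l were those with the lowest sums, and D1 and D3 had the highest sums of all 10. Of the 22 tested muscle markers 3 (13.6%) were called lower (Pvalb, Myh4 and Tnni2) and 1 (4.55%) higher (Tnnt1). The lower share lay near the 14.2% of all genes, and 15.7% of all genes were called higher. None of the 23 was at 0 in all libraries. Without D1 the number called lower was 9, and it was 1 without A2, C1, D2 or D4. The part of muscle content in the Rpl3l values was not tested.

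**Figure D5:**
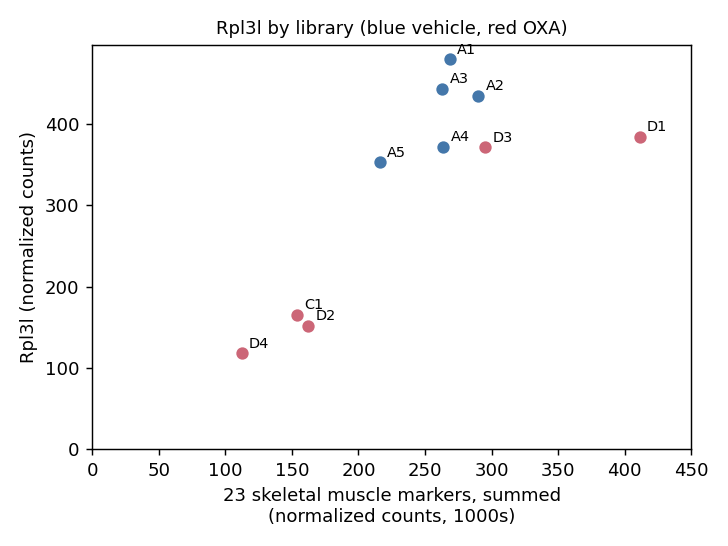
Rpl3l in normalized counts against the summed normalized counts of 23 skeletal muscle markers for each library. C1, D2 and D4 lie lowest on both axes, with Rpl3l between 118 and 166, and D1 and D3 lie among the vehicle libraries in Rpl3l at 385 and 372.

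The 2 members under the filter are known from the testis. Rpl10l, which stands in for Rpl10 in male germ cells, was at 0 in 8 libraries and at 2.86 in A5 and 0.71 in D1. Rpl39l, the testis form of Rpl39, was at 0 in A1, A2, D2 and D3 and at most 3.19 elsewhere. A count of 0 allows up to 3 reads, which was 1.56 to 5.43 normalized counts depending on the library, so neither could be compared. Every other member had a mean of at least 237.9 in each group.

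Ribosomal proteins whose symbols fall outside the name rule gave 3 tested genes, none called without centring. Rack1, the small-subunit scaffold for protein kinase C, averaged 4232 ± 1014 in vehicle and 2973 ± 728 in OXA (SD, n = 5 each; log2 change -0.51, adjusted p = 0.0717), close to the median member. Fau, whose product carries a small-subunit protein behind a ubiquitin-like part, averaged 4449 ± 907 and 4511 ± 759 (log2 change 0.03, adjusted p = 0.927). Rpl36al changed by -0.06 (adjusted p = 0.855). In the limma test after centring, Fau was called higher than the median member (relative log2 change 0.47, adjusted p = 0.00838). There 27.0% of all genes were called higher. Rpl36al (0.39, adjusted p = 0.0657) and Rack1 (-0.07, adjusted p = 0.690) were not called in that test. Rps27rt was under the filter, with at most 3.90 normalized counts in any library. There were 6 genes with a fitting name that the table does not class as protein-coding. Reads on 284 numbered pseudogenes of the members not classed as protein-coding came to 0.050% to 0.088% of the members' reads. Of these pseudogenes 180 were above 0 somewhere, and 1 of 8 tested, Rpl10a-ps1, was called lower, and 2 were without D2. Rpl10-ps3 and Rpl9-ps6, classed as protein-coding, were outside both the members and these pseudogenes. Rpl10-ps3 averaged 349 normalized counts in vehicle and 182 in OXA, beside 993 and 603 for Rpl10. Rpl9-ps6 averaged 74.9 and 55.0. No alternative added their reads to Rpl10 or Rpl9.

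Ribosomal protein genes have many near-identical copies, and the sources used here do not say how reads that match several genes were counted. In the last 300 bases of the members' GENCODE M21 protein-coding transcripts, the share of 50-base words that also occur in transcripts of another gene ran from 0 to 100% over the 81 tested members. Its median was 57.4% in the 20 relatively higher, 40.5% in the 13 relatively lower and 50.05% in the other 48 members. For single members it was 52.0% in Rps7, 62.2% in Rps4x, 3.53% in Rps3, 61.2% in Rpl22l1, 56.4% in Rpl38, 11.9% in Rpl22 and 0 in Rpl4 and Rpl3l. The part of such copies in the changes was not tested, and the values of members with a large share are uncertain.

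Genes that work with the ribosome were called in both directions, where 14.2% of all genes tested were called lower and 15.7% higher. Of 16 tested elongation factors and partners, 4 were called lower (25%) and 1 higher (6.25%), with a median log2 change of -0.08. None was called higher in 17 of 24 alternatives, among them without A1, A3, A4, A5, C1, D1, D2 or D3. Eef2k, the kinase that inhibits Eef2, changed by -0.96 (adjusted p = 0.000290), Eef2, which moves the ribosome along, by -0.55 (adjusted p = 0.0172), and Eef1a1, which delivers transfer RNA, by -0.54 (adjusted p = 0.0172). Eef1a2, its muscle and nerve form, changed by -0.90 (adjusted p = 0.0451), and 15 of 24 alternatives lost that call. Of 34 initiation factors 10 were called lower (29.4%) and 3 higher (8.82%), with a median of -0.04. Those lower were led by the subunits Eif3f (-0.92, adjusted p = 7.91e-05) and Eif3e (-0.59, adjusted p = 0.00249). Those higher were led by Eif2b4 (0.73, adjusted p = 0.00192) and Eif2s3x (0.75, adjusted p = 0.00280).

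Ribosome assembly and RNA polymerase I genes numbered 78 tested, of which 10 were called lower (12.8%) and 8 higher (10.3%), with a median of -0.06. Both shares lay under those of all genes. Rcl1 (-1.18) and Surf6 (-0.93), both of early processing of the precursor RNA, were lower, and the kinase Riok1 (0.82) and Noc4l, both of small-subunit assembly, were higher. Noc4l averaged 45.3 ± 4.11 in vehicle and 104 ± 16.9 in OXA (SD, n = 5 each). Of 22 tested genes of mTORC1 and the control of TOP messages, 7 were called lower (31.8%) and none higher, with a median of -0.39. The mTORC1 inhibitors Sesn1 (-1.07), Ddit4 (-1.50) and Akt1s1 (-0.63) were among the 7, as was Myc (-0.91), a driver of ribosome production. Of 16 genes of p53 and its targets, 3 were lower (18.8%) and 1 higher (6.25%), with Cdkn1a at -0.68, Trp53 at -0.54 and Eda2r at 1.06. None of these 16 was called higher without A3, A4 or D1, and 2 were without A5. The 77 mitochondrial ribosomal proteins had 8 called lower (10.4%) and 6 higher (7.79%), both under the shares of all genes, with a median of -0.14. Mrpl21 (-0.60), Mrpl39 (-0.70), Mrps24 (-0.74) and Mrpl3 (-0.71) had the smallest p-values. The mitochondrial counts leaned on single libraries: 4 were lower without A5 and 5 without A3, while 1 was higher without A4 or D3, 2 without A1, A2 or C1, and 3 without A3 or D4. In the other lists, 7 initiation factors were called higher without D1, and 9 in CPM. Without A3, A5, D2 and D4 together, 5 assembly genes and 4 genes of mTORC1 and TOP control were called lower.

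Within the members, the TOP tract was spread over all kinds of response. It stood at the annotated start in 5 of 15 relatively higher members with a promoter entry, in 1 of 10 relatively lower ones and in 7 of 36 others. Of members called lower without centring 4 of 21 had it (19.0%), and of those not called 9 of 40 (22.5%). Where any such tract beginning within 10 bases of the annotated start was counted, 39 of 63 members had it (61.9%), against 34.4% of all genes in the promoter table. These matches are a description: annotated starts can differ from those used in the tissue, and the data hold no measure of translation.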

How the data were processed

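The authors deposited 1 table of 2-decimal values (unit: signal). These are gene counts over a library's size factor, as the values show: dividing by a constant step per library gave whole reads for 100% of values within 0.006. The submitters' processing notes name GRCm38, DESeq2 1.18.1, HTSeq 0.11.2, Bowtie2 2.2.6, TopHat2 2.1.0, cutadapt 1.10, Trim Galore and FastQC 0.11.5, with no role or order. The sources used here give neither the strand setting nor the use of molecular identifiers, so the floor for a count of 0 covers counting error only.

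Genes with a mean of at least 5 were tested with limma 3.58.1 (R 4.3.3, trend) on log2(value + 1), two-sided, called at a Benjamini-Hochberg adjusted p under 0.05. Fold changes are on that scale. Paralog ratios had exact permutation tests. Alternatives used other pseudocounts, filters and scalings, edgeR 4.0.16 and DESeq2 1.42.0 on recovered reads, and fewer libraries. Named genes were called members, the 10 highest and 10 lowest changes, the paralog pairs, members under the filter and up to 4 genes per list with the smallest p; some of these are not reported here. Members and lists were chosen with earlier results of these data known. The OXA against vehicle test was tested on simulated data (14712 genes): it found 4% of 1.5-fold changes, 48% of 2-fold, 86% of 4-fold and 96% of 8-fold ones, with 7 false calls of 124. That simulation changed 50 genes at each fold, a smaller share of genes than was called in the data. It drew each gene independently, so it held no spread common to a library. Its rates therefore cannot be carried over to the members, whose spread was mostly common to a library. Smooth muscle markers had 3 of 8 lower, squamous epithelium 5 lower and 2 higher of 10, fibroblast 2 of 7 higher and endothelium 1 of 5 higher. All genes tested had 14.2% lower and 15.7% higher. Smooth muscle had 7 lower without A3, squamous epithelium 3 without A3 or C1, fibroblast 1 higher without A2, A4 or C1, and endothelium none without A3, A4, A5, C1, D1 or D2.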

Additional observations from a re-analysis of the deposited data

Results flagged for a closer look

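In groups of 5 libraries, a library was singled out where its gap to the nearest of the others exceeded 0.71 of the group's range. Chance does this in about 1 of 20 groups, and 3 of 186 groups examined met the rule. Rpl10l was at 2.86 normalized counts in A5 with the other vehicle libraries at 0, and at 0.71 in D1 with the other OXA libraries at 0, in both cases within the 3 reads that a count of 0 allows. Rpl22l1 stood at 129% of Rpl22 in D4, while the other OXA libraries lay between 80.3% and 93.5%.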

How the results depend on the processing

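The 28 members called lower became 18 with no filter on low values, where more genes were tested, and ranged from 17 to 30 when 1 library was left out. CPM scaling gave 1 member called higher, and 72.1% of the spread common to a library; the cause was not tested. Over all alternatives the median OXA minus vehicle change of the members lay between -0.54 and -0.26, beside -0.46. When 1 library was left out, members called relatively higher numbered 11 to 20 and relatively lower 6 to 16. The Rps27l to Rps27 difference then ranged from -0.39 to -0.23 and that of Rpl7l1 to Rpl7 from 0.35 to 0.53. Without the 3 shallowest libraries Rpl22l1 to Rpl22 was 0.94 and Rps27l to Rps27 -0.37, neither past the threshold in a design with fewer splits. Of 1944 values of single members under alternatives, 79 lost a call, 34 gained one and none reversed a called direction; with centring, 115 of 1215 lost one and 13 gained one. No paired analysis was possible because the library names give letters nested in treatment, and the OXA libraries C1 and D1 share a number.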
